A study of Mus musculus with 24 samples.

Results

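The hypothalamus of mice that lack Crif1 in hepatocytes was compared with that of control mice, using the 6 hypothalamus libraries among the 24 RNA sequencing libraries of the study. The 3 LKO libraries (genotype Alb-Cre;Crif1flox/flox) were set against the 3 Ctrl libraries (genotype Crif1flox/flox), so both groups carried the floxed Crif1 allele and differed by the Cre transgene. All mice were C57BL/6, fed chow and 8 weeks of age, and the other 18 libraries came from the liver, inguinal white adipose tissue (iWAT) and gastrocnemius muscle (GM) of the same genotypes. The albumin promoter drives Cre in hepatocytes, and brain cells are not its target. The labels do not say which libraries came from the same mouse, or that the 3 libraries of a group were separate mice, so each p-value measures the spread between these samples. Levels are given as FPKM, a measure of expression corrected for transcript length and sequencing depth. Of 24532 genes listed, 13828 were at 1 FPKM or more in at least 3 of the 6 libraries and were tested.

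The hypothalamus reads hormones, nutrients and neural signals and sets feeding, energy expenditure, body temperature, circadian timing and the secretion of the pituitary. Neurons that make AgRP and NPY promote feeding, POMC neurons restrain it, and orexin (Hcrt) and melanin-concentrating hormone (Pmch) are made in the lateral hypothalamus. Glucocorticoids from the adrenal gland act on most brain cells through a nuclear receptor that binds DNA, and neuronal activity induces a group of short-lived transcripts named immediate early genes. The liver hormones FGF21 and GDF15 signal through receptor complexes that contain beta-klotho (Klb) and GFRAL, respectively.

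The tissue label was checked with the defining peptides. Pmch was at 541, 788 and 954 FPKM in Ctrl 1 to 3 and at 663, 707 and 783 FPKM in LKO 1 to 3. Hcrt was between 233 and 423 FPKM in all 6 libraries and Agrp between 7.37 and 17.5 FPKM, so all the markers of the tissue were present in every library. Crif1, listed as Gadd45gip1, was at 25.1, 25.9 and 28.0 FPKM in Ctrl mice and at 25.8, 23.2 and 26.4 FPKM in LKO mice, with overlapping groups and a difference of -0.06 ± 0.07 (SE) in log2(FPKM + 1). Some libraries stood apart. Slc6a3, the dopamine transporter, was at 37.8 FPKM in Ctrl 1 and between 1.45 and 7.68 FPKM in the other 5, and the summed level of 12 striatum markers was 311 FPKM in Ctrl 1 against 194 to 207 FPKM elsewhere. Ctrl 3 held the highest summed level of 12 blood markers (1340 FPKM against 393 to 702) and 11.0 FPKM of Alb against at most 1.14 FPKM in the others. These 2 Ctrl libraries also had the lowest pairwise correlation over the tested genes (Pearson r = 0.977), while the highest r between 2 libraries was 0.994.

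Few transcripts differed between the genotypes. Only 3 genes passed a fold change of 1.5 with an adjusted p under 0.05 (0.0217% of the genes tested), and all 3, Abi3, Samd4 and Pip5k1a, were lower in LKO mice. At an unadjusted p under 0.05, 46 genes (0.333%) passed the same fold change, 23 higher and 23 lower in LKO mice (0.166% each), and 515 genes (3.72%) had an unadjusted p under 0.05 at any size. The groups did not overlap for 1342 genes (9.70%), with LKO mice higher in 4.74% and lower in 4.97%, and the median difference over all genes was -0.01 on the log2 scale. Limits of 1.5-fold apply to log2(FPKM + 1), which understates the change of low genes. Below, "nominal" means an unadjusted p under 0.05 in limma, a linear model with variances shared across genes. The plot of effect sizes against p-values shows how few genes lay outside the cloud around 0.

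**Figure D1:**
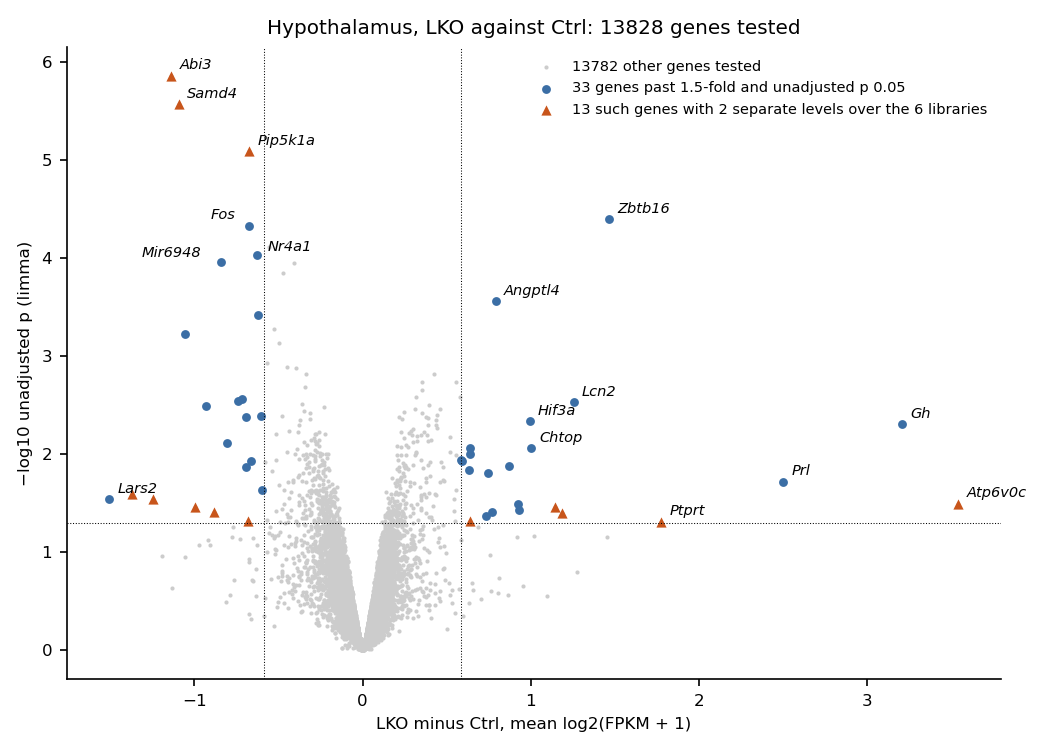
Difference between LKO and Ctrl hypothalamus in log2(FPKM + 1) (horizontal) against −log10 of the unadjusted p (vertical) for 13828 genes, with the 46 genes past 1.5-fold and an unadjusted p under 0.05 in colour and dotted lines at these limits. The 13 triangles are genes whose 6 values form 2 separate levels, and they include Abi3, Samd4 and Pip5k1a, the highest points.

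Abi3, an adaptor that acts on actin and is known from microglia, was at 3.29, 3.23 and 3.44 FPKM in Ctrl mice and at 1.09, 0.889 and 0.905 FPKM in LKO mice. It fell by 1.14 ± 0.08 (SE) on the log2(FPKM + 1) scale (adjusted p = 0.0189, limma). Samd4, an RNA-binding repressor of translation, was at 10.7, 9.86 and 8.76 FPKM in Ctrl mice and at 3.98, 3.93 and 4.20 FPKM in LKO mice, and fell by 1.09 ± 0.08 (adjusted p = 0.0189, limma). Pip5k1a, a kinase that makes the membrane lipid PIP2, was at 11.8, 11.5 and 11.4 FPKM against 7.09, 6.95 and 6.55 FPKM, and fell by 0.68 ± 0.06 (adjusted p = 0.0376, limma). In each of the 3 genes, all Ctrl libraries lay above all LKO libraries, with little spread inside a group. With 1 library left out the adjusted p rose above 0.05 for Abi3 without Ctrl 2 (0.0840) or LKO 3 (0.176), and for Samd4 and Pip5k1a without Ctrl 2 (0.135 and 0.324), LKO 1 (0.0755 and 0.0981), LKO 2 (0.0757 and 0.138) or LKO 3 (0.176 and 0.281). All 3 calls were lost without the filter on low values, where the adjusted p was 0.0641 for Abi3, 0.0929 for Samd4 and 0.0939 for Pip5k1a, and with variances not shared across genes, where it was 0.145, 0.372 and 0.145 (limma). Only Pip5k1a (0.0289) kept its call with all 24 libraries in 1 fit, and only Abi3 in a fit of the deposited TPM. With the replicate number added to the model, all 3 calls were also lost, although these numbers did not pair the samples. The adjusted p was then 0.199 for Abi3, 0.199 for Samd4 and 0.244 for Pip5k1a (limma). Abi3 lies at chr11:95830072-95842476 on the minus strand (mm10) and overlaps Phospho1 and Gngt2 on the other strand, and Samd4 at chr14:46882965-47105817 overlaps Gm10371 on the other strand. The library kit does not mark strand, so reads of such pairs cannot be told apart by strand.

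In GM, Abi3 and Samd4 also had a high and a low level, which did not follow the genotype, and Pip5k1a did not. In GM, Abi3 was at 41.5, 1.05 and 47.7 FPKM in Ctrl mice and at 1.09, 0.713 and 0.546 FPKM in LKO mice, so Ctrl 2 shared the low level of the LKO libraries. Samd4 in GM was at 13.1, 5.38 and 12.9 FPKM in Ctrl mice and at 11.8, 5.20 and 5.10 FPKM in LKO mice, with a high and a low level inside each genotype. Pip5k1a in GM was between 6.43 and 7.54 FPKM in Ctrl mice and between 6.92 and 9.17 FPKM in LKO mice. The difference between the hypothalamus and GM effects had an unadjusted p of 0.122 for Abi3, 0.168 for Samd4 and 3.16e-05 for Pip5k1a in limma, and none passed adjustment (adjusted p = 0.321 for Pip5k1a).

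Across the hypothalamus, 225 of the 13828 genes had such 2 levels, defined after the data were seen as a range of at least 1.5-fold of which 1 step between neighbouring libraries took 70% or more. In 3 of the 225 the step lay between the genotypes, and these were Abi3, Samd4 and Pip5k1a, which this definition cannot separate from any gene with a large difference and little spread. In the other 222 the step fell inside a genotype. Of the 46 genes past 1.5-fold at an unadjusted p, 13 had 2 levels and 10 of them had the step inside a genotype, which gave a low value in 2 of 3 LKO libraries for Ndst1, Cldn12 and Ywhaz, and a low value in 2 of 3 Ctrl libraries for Tenm3, Lzts3 and Ptprt. Ywhaz, a 14-3-3 protein, was at 183, 191 and 191 FPKM in Ctrl mice and at 194, 75.0 and 72.5 FPKM in LKO mice, so that LKO 1 kept the Ctrl level. Ptprt, a receptor phosphatase of neurons, was at 8.78, 0.235 and 0.232 FPKM in Ctrl mice and at 6.99, 7.95 and 7.32 FPKM in LKO mice.

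In the gene with the largest log2 difference, the levels were shared with a neighbour. Atp6v0c, the proton channel subunit of the vacuolar ATPase, was at 12.3, 570 and 13.8 FPKM in Ctrl mice and at 570, 548 and 567 FPKM in LKO mice (difference 3.54 ± 1.33, adjusted p = 0.999, limma). Atp6v0c-ps2, a pseudogene listed at an overlapping position on the same strand, was at 526, 0.0240 and 610 FPKM in Ctrl mice and at 0.0310, 0.0276 and 0.0316 FPKM in LKO mice. Their sum was between 539 and 624 FPKM in Ctrl mice and between 548 and 570 FPKM in LKO mice, and differed by -0.04 on the log2 scale. Rps27 and its copy Rps27rt exchanged levels in the same way, with Rps27 at 423 FPKM in Ctrl 1 and 419 FPKM in LKO 3 and at 4.80 to 6.65 FPKM in the other 4 libraries, where Rps27rt was at 354 to 534 FPKM. Both genes are therefore uncertain as single genes. Whether the levels of Abi3, Samd4 and Pip5k1a arose in this way was not tested.

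**Figure D2:**
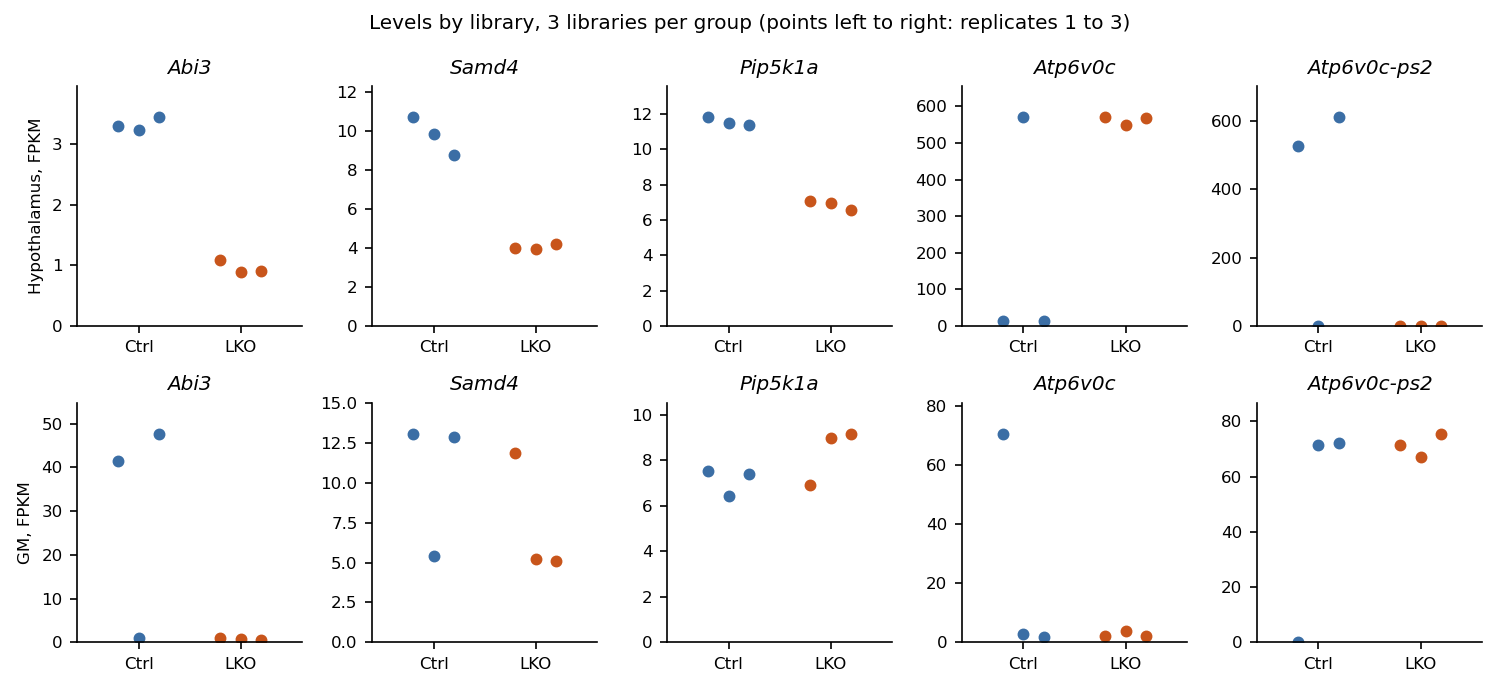
FPKM (vertical, from 0) of Abi3, Samd4, Pip5k1a, Atp6v0c and Atp6v0c-ps2 in each library of the hypothalamus (top) and GM (bottom), with 3 Ctrl and 3 LKO libraries per panel. Abi3, Samd4 and Pip5k1a separate the genotypes in the hypothalamus, Abi3 and Samd4 show both levels among the Ctrl libraries of GM, and Atp6v0c and its pseudogene are high in opposite libraries.

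Transcripts that glucocorticoids induce were more often higher than lower in LKO mice. Of 35 such transcripts, all tested, 14 were nominally higher and 3 nominally lower in LKO mice, where 1.65% and 2.08% of all genes were, and 7 of the 14 passed 1.5-fold. One of the 14, Lcn2, was under 1 FPKM in every Ctrl library and so entered the test only through the group where it was higher. The groups did not overlap for 18 of the 35, against 9.70% of all genes, with LKO mice higher in 14 (4.74% of all genes) and lower in 4 (4.97%), and the median difference was 0.20 against -0.01 over all genes. None of the 35 had an adjusted p under 0.05, and the list was drawn up with earlier results of these data known. Zbtb16, a zinc finger repressor that glucocorticoids induce in many tissues, was at 1.63, 1.55 and 1.96 FPKM in Ctrl mice and at 4.75, 7.13 and 7.90 FPKM in LKO mice. All LKO libraries were above all Ctrl libraries, the means differed 3.84-fold, and the difference was 1.46 ± 0.16 (95% interval 1.08 to 1.85, adjusted p = 0.130, limma). Without LKO 1, the lowest LKO library, the adjusted p for Zbtb16 was 0.0275 and the highest adjusted p under any alternative was 0.999.

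Angptl4, a secreted inhibitor of lipoprotein lipase, was at 2.57, 2.98 and 3.73 FPKM in Ctrl mice and at 6.66, 5.45 and 6.03 FPKM in LKO mice (difference 0.79 ± 0.12, adjusted p = 0.347, limma). Hif3a, a relative of the hypoxia-inducible factors, was at 0.547, 1.09 and 1.91 FPKM against 2.38, 4.08 and 3.34 FPKM, and Plin4, a lipid droplet coat protein, at 1.05, 1.28 and 1.74 FPKM against 1.88, 5.25 and 3.36 FPKM. Both were higher in each LKO library than in any Ctrl library, and Plin4 overlaps Hdgfl2 on the other strand. Fkbp5, the co-chaperone that dampens the glucocorticoid receptor, was at 8.16, 9.18 and 13.3 FPKM in Ctrl mice and at 13.2, 16.7 and 17.2 FPKM in LKO mice, so Ctrl 3 lay just above LKO 1. Lcn2, a siderophore-binding protein, was at 0.503 to 0.861 FPKM in Ctrl mice and at 1.86 to 5.34 FPKM in LKO mice, and Map3k6, a stress kinase, at 0.627 to 1.57 FPKM and 1.65 to 2.22 FPKM.

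The other 7 nominally higher members differed by less than 1.5-fold on the log2(FPKM + 1) scale. Tsc22d3 (GILZ), a leucine zipper protein that mediates anti-inflammatory effects, was at 48.2, 57.6 and 59.97 FPKM in Ctrl mice and at 66.2, 72.4 and 72.5 FPKM in LKO mice (difference 0.35 ± 0.09). Pdk4, the kinase that restrains glucose oxidation, was at 3.03, 3.39 and 2.74 FPKM against 4.07, 4.01 and 4.42 FPKM (difference 0.35 ± 0.08, adjusted p = 0.999, limma). Both were higher in every LKO library. The remaining 5 were Mt2 (0.46), Xdh (0.46), Mertk (0.58), Pnpla2 (0.28) and Fam107a (0.20), given as log2 differences, and all of these but Mt2 were named after their values were seen. The 3 lower members were Tmem252 (-0.51), Nfkbia (-0.31), the inhibitor of NF-kB, and Dusp1 (-0.23), a phosphatase that immediate early stimuli also induce. Fkbp4, Mt1 and Mt2 were the most abundant members of the list, and Fkbp4 was at 94.3 to 123 FPKM in Ctrl mice and 110 to 114 FPKM in LKO mice. Members differed among the Ctrl libraries too: the mean of log2(FPKM + 1) over the list was 3.41, 3.58 and 3.72 in Ctrl 1 to 3 and 3.77, 3.89 and 3.86 in LKO 1 to 3, so the groups did not overlap but Ctrl 3 lay close to LKO 1. Leaving out 1 library at a time left 11 to 18 members nominally higher.

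Some of the same transcripts are given here for the other tissues. The log2 difference of Zbtb16 was 0.65 in GM, 1.86 in iWAT and 2.16 in liver, that of Fkbp5 was 0.29, 1.23 and 1.21, and that of Pdk4 was 2.15, 1.28 and 4.20. Among these, Zbtb16 (adjusted p = 0.00515, limma) and Pdk4 (adjusted p = 0.00548, limma) passed in liver and Fkbp5 did not (adjusted p = 0.0536, limma). None passed in iWAT (0.204, 0.390 and 0.0884 for Zbtb16, Fkbp5 and Pdk4) or in GM (0.758, 0.845 and 0.430). Other nominally higher members of the list that were also higher in liver at an adjusted p under 0.05 (limma) included Angptl4 (0.78), Plin4 (1.87), Lcn2 (2.95), Mertk (0.76), Pnpla2 (1.02) and Mt2 (5.54). Hif3a, Map3k6 and Fam107a were not tested in liver. Tsc22d3 went the other way in liver, with 0.28 in GM, -0.35 in iWAT and -1.82 in liver (adjusted p = 0.000216 in liver, limma). The effect in the hypothalamus minus that in GM was 0.81 for Zbtb16 (adjusted p = 1.00, limma), -0.94 for Angptl4 (adjusted p = 1.00, limma) and -1.80 for Pdk4 (adjusted p = 0.671, limma), and none of these differences passed. Over 10166 genes tested in both tissues, limma found 0 whose effect differed at an adjusted p under 0.05, with 464 (4.56%) at an unadjusted p under 0.05. With GM LKO 1 left out there were 17 such genes, and with hypothalamus Ctrl 1 left out there were 3.

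Immediate early genes were more often lower than higher in LKO mice. Of 20, 17 were tested, 6 were nominally lower and 0 nominally higher, where 2.08% and 1.65% of all genes were, and the median difference was -0.15. None passed adjustment. Fos, the transcription factor most used as a mark of recent neuronal activity, was at 27.2, 29.6 and 27.0 FPKM in Ctrl mice and at 15.9, 18.9 and 16.6 FPKM in LKO mice (difference -0.68 ± 0.08, 95% interval -0.86 to -0.49, adjusted p = 0.130, limma). Nr4a1, an orphan nuclear receptor, was at 15.2, 14.3 and 12.9 FPKM against 8.32, 9.37 and 8.73 FPKM (difference -0.63 ± 0.08, adjusted p = 0.174, limma). Junb, a partner of Fos, was at 17.1, 17.8 and 19.6 FPKM against 12.3, 12.4 and 11.5 FPKM (difference -0.56 ± 0.07, adjusted p = 0.174, limma). In these 3 genes no LKO library reached the lowest Ctrl library. Egr1 was at 30.9, 31.7 and 28.2 FPKM in Ctrl mice and at 28.0, 21.6 and 18.7 FPKM in LKO mice, where LKO 1 was next to Ctrl 3. Nr4a2 (-0.24) and Cyr61 (-0.24) were the other nominally lower members, and Jun, with a difference of -0.14, had no overlap but an unadjusted p of 0.0621 in limma. Leaving out 1 library at a time left 4 to 8 members nominally lower.

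**Figure D3:**
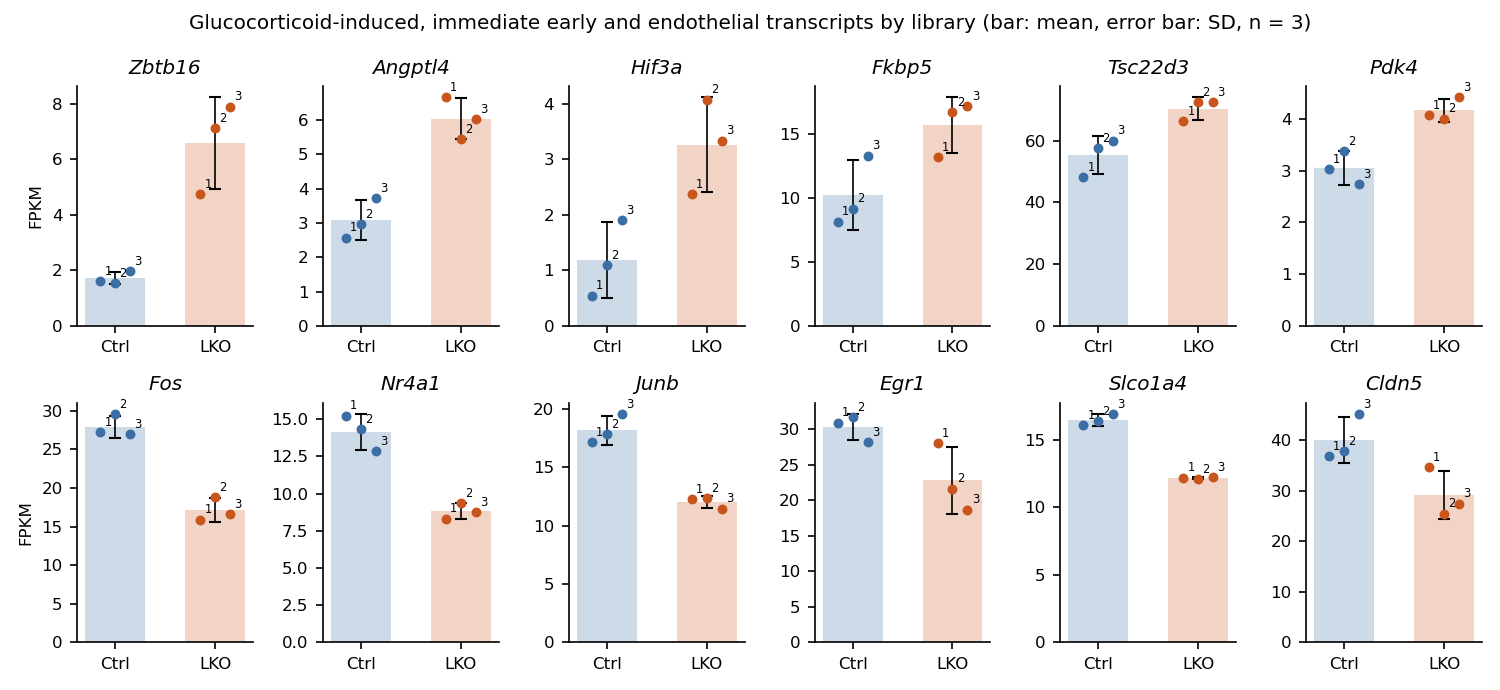
FPKM (vertical, from 0) of 6 glucocorticoid-induced transcripts (top), 4 immediate early genes and 2 endothelial transcripts (bottom) in each hypothalamus library, numbered by replicate, with bars for the mean and error bars for the SD of 3 libraries. Zbtb16 ranged from 4.75 to 7.90 FPKM in LKO mice against 1.55 to 1.96 FPKM in Ctrl mice, and Fos from 15.9 to 18.9 FPKM against 27.0 to 29.6 FPKM.

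The promoters of Fos, Nr4a1, Junb and Map3k6 are shown as a selection of genes that differed nominally within the immediate early and glucocorticoid lists and whose sequence holds a letter match to the element that the corresponding pathway uses. Nr4a2 (TGACG) and Fam107a (the relaxed element below) also differed nominally and hold such a match. Each is the RefSeq window of 250 bases before to 50 bases after the start on GRCm38.p6 (the mm10 assembly), written 5′ to 3′ along the gene. Capitals in Fos, Nr4a1 and Junb mark TGACG on either strand, the core of the cyclic AMP response element (CRE), so that CGTCA is the same match on the other strand. Capitals in Map3k6 mark GNACA and TGTNC separated by any 3 bases, an inverted repeat that is a relaxed form of the glucocorticoid response element (GRE) and reads the same on both strands.

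Fos, chr12:85473640-85473939, plus strand: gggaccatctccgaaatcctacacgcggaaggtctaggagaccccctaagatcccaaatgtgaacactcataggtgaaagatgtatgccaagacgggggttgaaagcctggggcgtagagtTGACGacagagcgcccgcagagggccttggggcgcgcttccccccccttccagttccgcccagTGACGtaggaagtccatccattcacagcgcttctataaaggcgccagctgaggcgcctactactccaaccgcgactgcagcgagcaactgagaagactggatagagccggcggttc
Nr4a1, chr15:101266596-101266895, plus strand: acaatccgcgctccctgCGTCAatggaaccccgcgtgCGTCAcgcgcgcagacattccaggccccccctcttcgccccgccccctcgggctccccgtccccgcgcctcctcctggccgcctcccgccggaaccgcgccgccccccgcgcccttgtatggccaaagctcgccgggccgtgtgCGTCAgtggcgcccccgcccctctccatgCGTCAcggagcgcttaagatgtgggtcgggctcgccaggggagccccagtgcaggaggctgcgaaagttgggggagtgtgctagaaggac
Junb, chr8:84978699-84978998, minus strand: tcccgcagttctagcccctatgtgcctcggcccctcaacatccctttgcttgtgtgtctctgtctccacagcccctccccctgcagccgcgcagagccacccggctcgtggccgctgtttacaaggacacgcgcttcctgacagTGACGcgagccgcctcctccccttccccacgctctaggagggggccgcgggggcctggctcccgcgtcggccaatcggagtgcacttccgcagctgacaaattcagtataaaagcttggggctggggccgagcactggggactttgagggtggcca
Map3k6, chr4:133240568-133240867, plus strand: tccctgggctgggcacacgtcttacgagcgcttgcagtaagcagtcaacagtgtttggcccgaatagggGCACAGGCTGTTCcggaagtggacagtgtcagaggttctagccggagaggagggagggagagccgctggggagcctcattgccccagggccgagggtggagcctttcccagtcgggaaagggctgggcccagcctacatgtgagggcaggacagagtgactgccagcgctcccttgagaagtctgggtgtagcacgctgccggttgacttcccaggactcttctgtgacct

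TGACG was found at 2 positions in Fos, 4 in Nr4a1 and 1 in Junb, and in 20.8% of all 32851 promoters of this length. Of the 20 immediate early genes, 15 had a promoter in the table, and 13 of the 15 held it, among them Npas4 and Homer1, which did not differ nominally. Of the 35 glucocorticoid-induced genes, 29 had a promoter in the table, 13 held TGACG and 4 held the relaxed GRE (Sgk1, Mt1, Fam107a and Map3k6), which 0.475% of all promoters hold. Several genes have more than 1 listed promoter, which makes a match more likely for them. The stricter palindrome TGACGTCA, which contains TGACG, was in 1.79% of promoters and in none of the 4 shown, and the stricter GRE, an inverted repeat of TGTTCT with the same spacing, in 0.00913% and also in none of them. Zbtb16, Angptl4 and Egr1 were not searched. These letter matches describe the sequence alone.

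Some feeding peptides were nominally higher in LKO mice. Of 25 listed, 21 were tested, 6 were nominally higher and 0 nominally lower, where 1.65% and 2.08% of all genes were, none of the 6 passed 1.5-fold, and the median difference was 0.08. Estimates were above 0 for 13 of the 21 and below 0 for 8. The lowest difference (-0.63, not nominal) was larger in size than the highest (0.55). Hcrt was at 233, 339 and 308 FPKM in Ctrl mice and at 404, 378 and 423 FPKM in LKO mice, so every LKO library was above every Ctrl library (1.37-fold, difference 0.47 ± 0.14, adjusted p = 0.999, limma). Npy was at 49.6, 64.2 and 43.4 FPKM against 77.8, 65.7 and 81.0 FPKM, without overlap but with LKO 2 next to Ctrl 2 (difference 0.52 ± 0.15). Agrp was at 9.62, 15.6 and 7.37 FPKM against 17.5, 14.3 and 15.2 FPKM, so Ctrl 2 lay inside the LKO range (difference 0.55 ± 0.23, 95% interval 0.00 to 1.09). Its difference was between 0.00 and 0.82 over the alternatives, and it was nominal in 7 of 17. The other 3 were Nts (0.55), Vgf (0.37) and Pnoc (0.22), which encode neurotensin, a granin-like precursor and nociceptin. Pmch differed by -0.05 ± 0.20 (95% interval -0.52 to 0.42), within the spread between libraries. Without Ctrl 1, 5 members of the list were nominally higher and 4 nominally lower, and the median was -0.05, while without LKO 2 or LKO 3 only 2 and 3 were nominally higher.

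Of 11 tested peptides that control the pituitary or are released from its posterior lobe, 2 were nominally higher and 0 lower (medians 0.24 for this list and -0.01 for all genes), and of 12 markers of the suprachiasmatic nucleus, which holds the clock, 2 were nominally higher and 0 lower (median 0.19), where 1.65% of all genes were higher and 2.08% lower. Crh, the peptide that starts the adrenal axis, was at 4.90, 2.21 and 1.68 FPKM in Ctrl mice and at 3.91, 6.57 and 5.25 FPKM in LKO mice, with Ctrl 1 above LKO 1 (difference 0.73 ± 0.30, adjusted p = 0.999, limma), and was nominal in 9 of 16 alternatives. Trh, which drives thyroid-stimulating hormone, was at 82.4, 102 and 80.2 FPKM against 105, 111 and 105 FPKM (difference 0.28 ± 0.10). Avp (0.06), Oxt (0.28) and Sst (0.24) had overlapping groups. Vip, a peptide of the suprachiasmatic nucleus, was at 4.03, 7.77 and 1.79 FPKM in Ctrl mice and at 8.58, 8.98 and 7.86 FPKM in LKO mice, so Ctrl 2 was next to LKO 3. Its difference was between 0.11 and 1.34 over the alternatives and nominal in 10 of 17. Nms, also made there, was nominally higher with overlapping groups (0.41), and nominal in 8 of 16 alternatives. Of 23 clock transcripts, Per2 (0.23) and Nr1d1 (0.23) were nominally higher, the latter overlapping Thra on the other strand, and the median of the list was -0.01. Of 22 transcription factors of hypothalamic nuclei, Otp (0.44), Hmx3 (0.35) and Dlx1 (0.34) were nominally higher and none nominally lower.

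Of 31 tested receptors of metabolic hormones, 5 were nominally higher and 1 nominally lower, where 1.65% and 2.08% of all genes were, none of the 6 passed 1.5-fold, and the median difference was 0.06. Calcr, the calcitonin receptor that with its partners forms amylin receptors, was at 9.16, 10.04 and 8.59 FPKM in Ctrl mice and at 11.2, 11.9 and 12.02 FPKM in LKO mice (difference 0.31 ± 0.07, adjusted p = 0.999, limma). Ghsr (0.30), the ghrelin receptor, Npy2r (0.25), Hcrtr1 (0.21) and Adipor2 (0.20) were the others, and Ramp3 (-0.20), a partner of Calcr, was lower. Ghsr and Ramp3 were each nominal in only 5 of 16 alternatives. Without LKO 2, 2 of the receptors were nominally higher, and without LKO 1, 3 were nominally higher and 3 lower. Of 8 components of the FGF21 and GDF15 receptors, 5 were tested and 0 were nominal in limma at either adjusted or unadjusted p. Klb was between 0.185 and 0.251 FPKM in Ctrl mice and between 0.239 and 0.328 FPKM in LKO mice, under the filter in every library. Gfral, a receptor of the hindbrain, was listed at 0 in 5 libraries and at 0.0378 FPKM in LKO 3. Fgfr1 was at 30.4, 32.2 and 32.6 FPKM against 32.5, 33.5 and 34.4 FPKM, with a difference of 0.07 ± 0.06 (95% interval -0.06 to 0.21).

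Transcripts of the pituitary, which hangs below the hypothalamus, were more often higher than lower in LKO libraries, with a wide spread. Of 15 markers, 7 were tested and 5 were nominally higher, where 1.65% of all genes were. One of the 5, Lhb, was under 1 FPKM in every Ctrl library and so entered the test only through the group where it was higher. Gh, growth hormone, was at 34.6, 42.8 and 6.05 FPKM in Ctrl mice and at 512, 151 and 110 FPKM in LKO mice (difference 3.21 ± 0.80, adjusted p = 0.999, limma). Prl, prolactin, was at 0.368 to 8.64 FPKM in Ctrl mice against 10.2 to 56.1 FPKM in LKO mice, and LKO 1 held the highest value of both. Tshb (0.75) and Lhb (0.64) also passed 1.5-fold without overlap, and Dlk1 (0.25) was the fifth. Dlk1 was abundant in every library, at 73.7, 93.1 and 76.9 FPKM in Ctrl 1 to 3 and 95.1 to 98.6 FPKM in LKO mice, and did not follow Gh across the Ctrl libraries. Cga was at 5.28, 6.32 and 0.232 FPKM in Ctrl mice and at 16.8, 6.96 and 7.17 FPKM in LKO mice, without overlap but not nominal. Of the whole list, 7 of 15 were under 1 FPKM in all libraries, and Pou1f1 was at 0.607 FPKM in LKO 1 and at most 0.0294 FPKM elsewhere. The summed level was 503 to 823 FPKM in Ctrl mice and 795 to 1193 FPKM in LKO mice, with Pcsk1n, which neurons make too, contributing 377 to 737 FPKM. Without Ctrl 3, which held the least Gh, 4 members were nominally higher, and without LKO 1, LKO 2 or LKO 3 only 2, 3 and 3 were. The part that attached pituitary tissue played in these values was not tested.

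**Figure D4:**
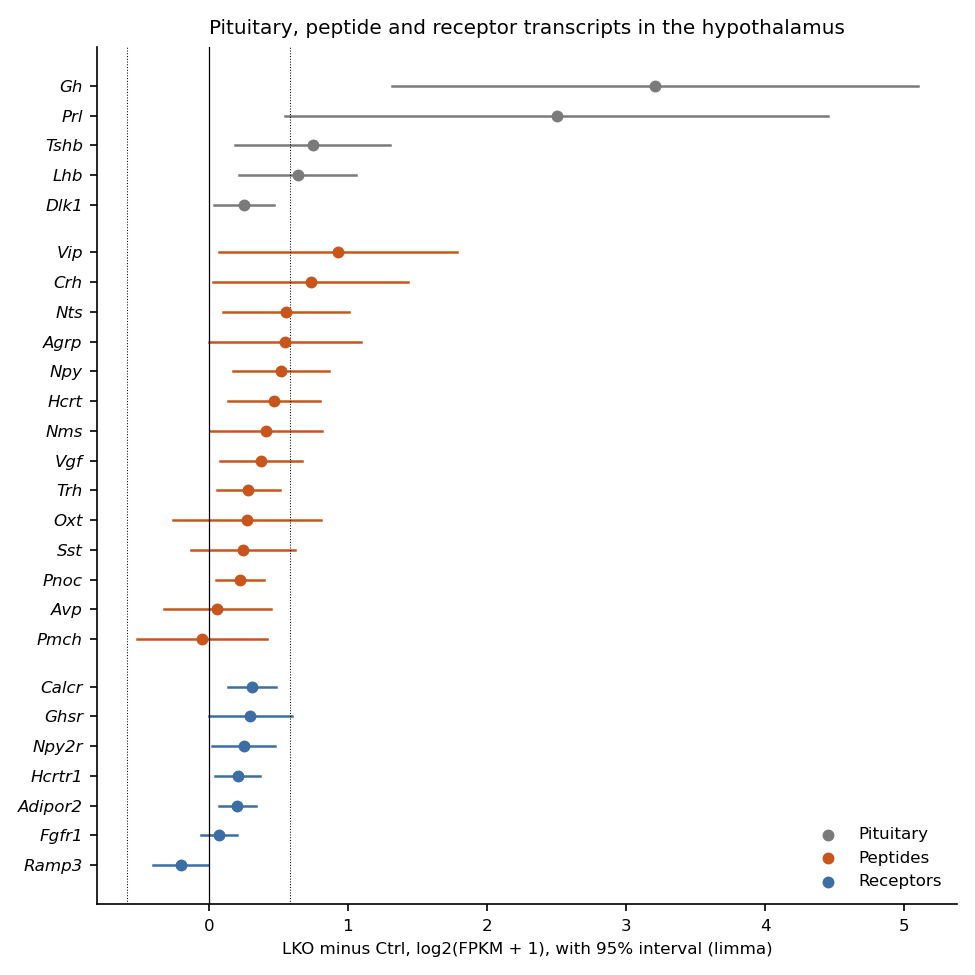
Difference between LKO and Ctrl hypothalamus in log2(FPKM + 1) with its 95% interval from limma (horizontal) for 5 pituitary, 14 peptide and 7 receptor transcripts, and dotted lines at 1.5-fold. Gh (3.21) and Prl (2.50) have the largest differences and the widest intervals. The peptides shown include every nominal member of the feeding, pituitary-controlling and suprachiasmatic lists, all nominally higher. Their lean to the right therefore follows from this choice. Of all tested members of these lists, 8 of 21, 3 of 11 and 1 of 12 had estimates below 0.

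Vascular and microglial markers were more often lower than higher in LKO mice. Of 16 endothelial and mural markers, all tested, 8 were nominally lower and 0 higher, where 2.08% and 1.65% of all genes were, none passed 1.5-fold on the log2(FPKM + 1) scale, and the median difference was -0.24. Slco1a4, a transporter of the blood-brain barrier, was at 16.1, 16.4 and 16.9 FPKM in Ctrl mice and at 12.2, 12.1 and 12.2 FPKM in LKO mice (difference -0.41 ± 0.05, adjusted p = 0.174, limma). Cldn5, the tight junction protein of brain endothelium, was at 36.8, 37.8 and 45.2 FPKM against 34.6, 25.4 and 27.4 FPKM. The others were Tek (-0.48), Itm2a (-0.31), Kcnj8 (-0.26), Pdgfrb (-0.25), Rgs5 (-0.23) and Cdh5 (-0.22). Blood markers were also lower in LKO mice on average, with 0 of 8 tested nominal, a median difference of -0.58 and a summed level of 535 to 1340 FPKM in Ctrl mice against 393 to 702 FPKM in LKO mice, and their part in the vascular values was not tested. The highest Ctrl sum was that of Ctrl 3, and the other Ctrl libraries were at 692 and 535 FPKM, inside the LKO range. Without Ctrl 3 the median difference of the blood markers was -0.25. Without Ctrl 3, 5 of the 16 were nominally lower, without LKO 2, 4 were, and without LKO 3, 5 were. Of 22 microglial markers, 4 were nominally lower, against the same 2.08% of all genes, namely Trem2 (-0.33), Tyrobp (-0.30), C1qb (-0.20) and Olfml3 (-0.34), and only 1 was without Ctrl 1 or without LKO 2, and 2 were without LKO 3. In such bulk samples fewer cells of a type and less RNA per cell cannot be told apart.

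Of the pan-neuronal and astrocyte markers, 0 of 12 and 0 of 14 were nominal in limma at an unadjusted p, with medians of 0.01 and -0.08. Estimates were below 0 for 12 of the 14 astrocyte markers, and their summed level was 1573 to 1623 FPKM in Ctrl mice against 1497 to 1561 FPKM in LKO mice, without overlap. Of 17 oligodendrocyte markers, Mobp (0.35) was nominally higher, and 14 of the 17 estimates were above 0. Transcripts of the integrated stress response, which the study followed in the liver, gave 0 nominal members of 31 tested (median -0.01), with Atf4 at 56.2 to 67.8 FPKM in Ctrl mice and 57.2 to 68.0 FPKM in LKO mice. Nuclear subunits of complex I gave 0 of 36 at an unadjusted p in limma, against 3.72% of all genes. Estimates were below 0 in 33 of the 36 (median -0.09), but the groups overlapped in all 36. The mean of log2(FPKM + 1) over the list was 6.41, 6.47 and 6.71 in Ctrl 1 to 3. It was 6.54, 6.29 and 6.47 in LKO 1 to 3, so only Ctrl 3 lay above the LKO range. The mitochondrial unfolded protein response gave 1 of 15, Spg7 (-0.14). Of 27 tested transcripts of PPAR and fatty acid oxidation, 3 were nominally higher, where 1.65% of all genes were, and these, Pdk4, Angptl4 and Plin4, are also members of the glucocorticoid list. Acer2, an alkaline ceramidase, was at 3.999, 4.30 and 4.23 FPKM in Ctrl mice and 4.64, 3.78 and 4.23 FPKM in LKO mice. Hr, a corepressor that thyroid hormone induces, was nominally higher (0.63) with overlapping groups, and Slco1c1, the thyroxine transporter of brain vessels, nominally lower (-0.31).

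**Figure D5:**
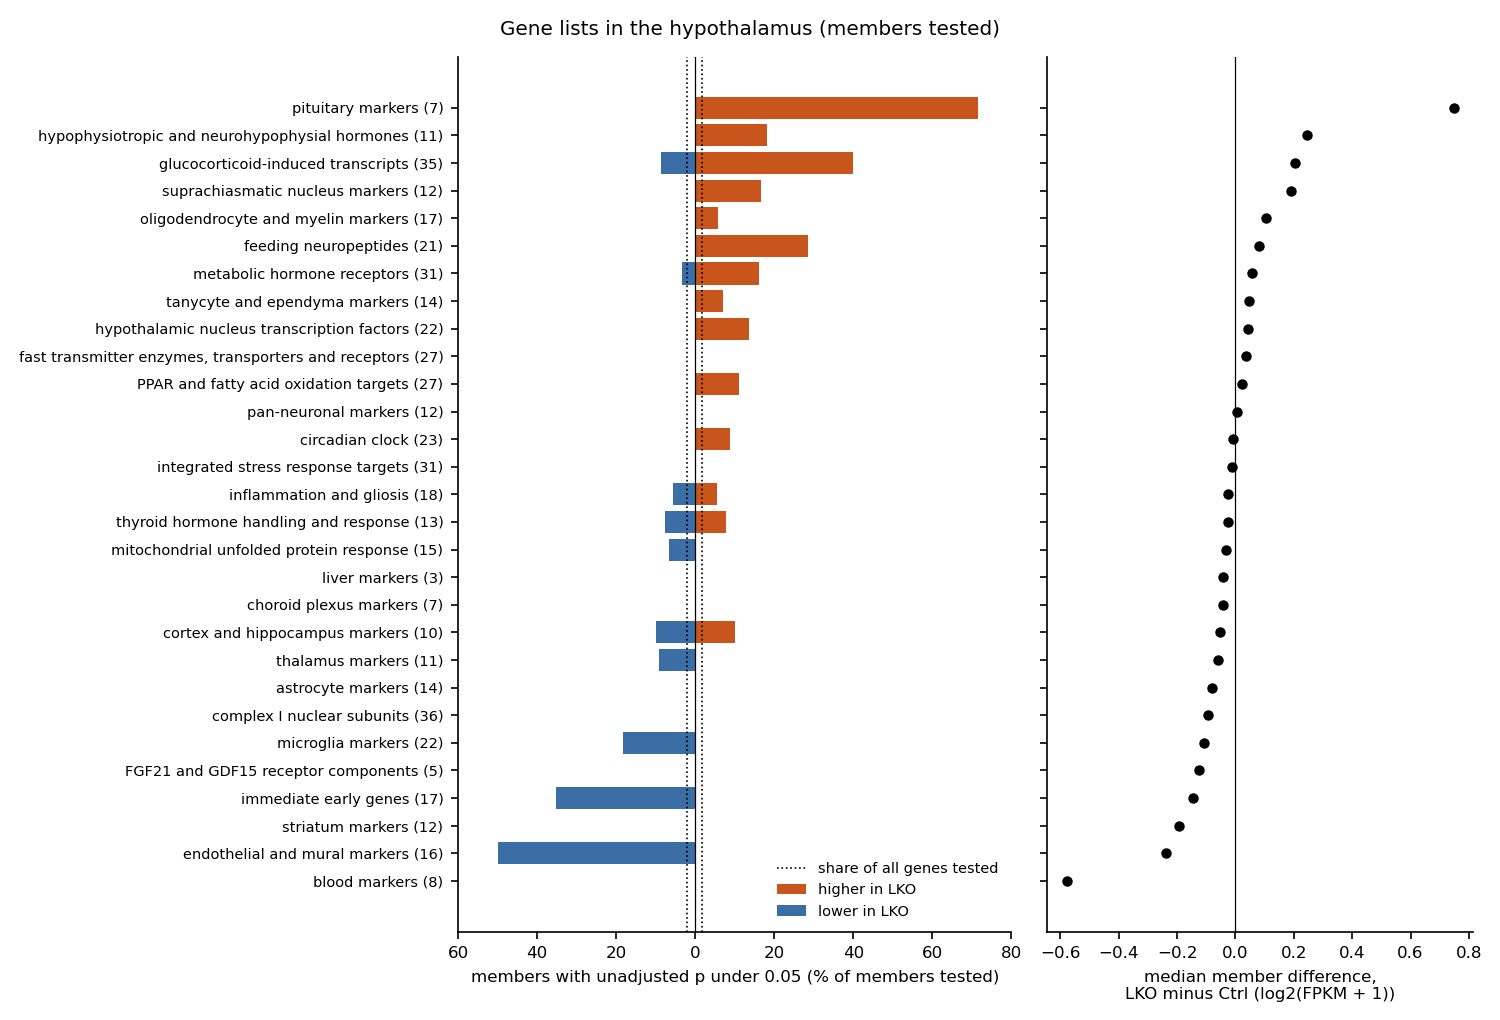
Share of tested members of each gene list with an unadjusted p under 0.05, higher (right) or lower (left) in LKO hypothalamus, in percent, with dotted lines at the share of all genes (1.65% higher, 2.08% lower), and the median member difference in log2(FPKM + 1). Pituitary, glucocorticoid-induced and feeding lists lean to the right, endothelial and immediate early lists to the left, and the number of tested members stands beside each name.

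Further genes passed 1.5-fold at an unadjusted p. Lars2, the mitochondrial leucyl-tRNA synthetase, was at 7.24, 27.3 and 44.5 FPKM in Ctrl mice and at 6.41, 7.16 and 6.64 FPKM in LKO mice, so Ctrl 1 was close to the LKO level. Numb, a regulator of Notch signalling, was at 11.2, 10.6 and 10.7 FPKM against 4.05, 8.11 and 4.23 FPKM, with LKO 2 near the Ctrl level. Chtop, a chromatin and RNA export factor, was at 17.0, 16.6 and 15.5 FPKM against 45.9, 19.95 and 41.6 FPKM, again with LKO 2 apart. D630045J12Rik (-1.06), Ccl27b (-0.81), Kctd18 (-0.70) and Hotairm1 (-0.69) were lower without overlap, and Ccl27b lies in a cluster of near-identical chemokine genes and is uncertain. Ctgf, a target of YAP signalling that was listed among the cortex and hippocampus markers, was at 10.1, 13.3 and 17.2 FPKM in Ctrl mice and at 7.07, 8.08 and 7.43 FPKM in LKO mice. The microRNA genes Mir6948 (-0.84), Mir1968 (-0.72) and Mir7000 (0.64) lie inside the host genes Acin1, Grtp1 and Mapk8ip1 on the same strand, so their values cannot be told apart from reads of the host transcript. The genes with the largest spread inside a genotype included Jund, Clock, Srgap1, Kif1b, Cers1, Gp1bb and Gm13363. Clock was at 0.149 FPKM in Ctrl 2 and 0.244 FPKM in LKO 2 and at 6.34 to 8.04 FPKM in the other 4 libraries, and Jund at 8.47 FPKM in Ctrl 1 and 7.62 FPKM in LKO 1 against 83.5 to 104 FPKM.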

How the data were processed

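Total RNA was prepared with Trizol and sequenced from an unstranded poly(A) kit as 100-base read pairs. The authors' processing notes name HISAT2, StringTie and the mouse build mm10, without roles, and no count table was used here. The authors deposited FPKM values per gene in a joined table of all libraries and FPKM, TPM and coverage in a table per library. Coverage divided by FPKM gave a relative depth of 4.47 to 7.59 gigabases per library. FPKM keeps no read counts, so no counting interval could be given. From the deposited FPKM, log2(FPKM + 1) was fitted with limma 3.58.1 (R 4.3.3, lmFit and eBayes with trend, two-sided, Benjamini-Hochberg over 13828 genes at 1 FPKM or more in at least 3 of 6 libraries), without covariates. The interaction with GM used the same model over 12 libraries. Differences are LKO minus Ctrl on the log2(FPKM + 1) scale and understate the change of low genes. The fit was tested on simulated data. With 3 libraries against 3, an exact permutation test of 1 gene cannot go below 0.1. The deposited TPM values served as an alternative, as did another pseudocount, filters, scalings, a replicate block and leaving out libraries. Members, gene lists and tests were chosen with earlier results of these data known. Named genes were those with an adjusted p under 0.05, the 12 largest differences per direction without overlap past 1.5-fold, list members past 1.5-fold, the 3 most abundant members of 9 lists, the 10 with the largest spread inside groups, the most variable markers of other cells and a few fixed genes. All others were named after their values were seen.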

Additional observations from a re-analysis of the deposited data

Results flagged for a closer look

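The effect of LKO in the hypothalamus was compared with that in the other tissues by an interaction term in limma, adjusted over all genes tested in both tissues. Against GM, no named gene differed at an adjusted p under 0.05. Against iWAT, 39 of 11206 genes differed, and among the named genes these were Pip5k1a (hypothalamus minus iWAT -1.08, log2), Samd4 (-0.999) and the vascular transcripts Cldn5 (-1.28), Cdh5 (-0.988) and Rgs5 (-0.706).

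Against the liver, where the gene is deleted, 3570 of 9876 genes differed. The sign of such a difference does not give the direction in the hypothalamus. Mt2 was higher in LKO mice in both tissues (0.46 in hypothalamus, 5.54 in liver). Fos was lower in hypothalamus (-0.68) and higher in liver (1.46). Adipor1 (-0.01 in hypothalamus, 0.34 in liver) and Tef (-0.03 and -0.61) differed little in the hypothalamus. Among the named genes the hypothalamus effect minus the liver effect was above 0 for Tsc22d3 (2.17), a member of the glucocorticoid list, for Gadd45gip1 (1.77), which encodes CRIF1, and for Per2 (0.989), Adipor2 (0.866), Syt1 (0.727) and Tef (0.578). It was below 0 for the immediate early genes Egr1 (-3.23), Jun (-2.50), Fos (-2.14), Junb (-1.94), Nr4a1 (-1.35) and Cyr61 (-0.90), and for other members of the glucocorticoid list, Mt2 (-5.08), Mt1 (-4.35), Pdk4 (-3.84), Lcn2 (-1.70) and Pnpla2 (-0.732). Vascular and microglial markers below 0 were Trem2 (-2.09), Tyrobp (-1.63), Olfml3 (-1.49), Rgs5 (-1.46), Tagln (-1.42), Slco1a4 (-1.36), C1qb (-1.34), Aif1 (-1.29), Pdgfrb (-1.22), Kcnj8 (-1.11), Myl9 (-1.06), Cdh5 (-0.989) and Tek (-0.727). Besides Mt2, genes with 2 levels in the hypothalamus below 0 were Samd4 (-2.49), Ywhaz (-1.81), Abi3 (-1.66), Urgcp (-1.45), Ucp2 (-1.31), Cldn12 (-1.23) and Pip5k1a (-1.04). The others below 0 were Ctgf (-1.98), Snord12 (-1.60), Rangrf (-1.52), Csnk1e (-1.11), Acer2 (-1.01), Rora (-0.975), Malat1 (-0.967), Kctd18 (-0.91), Slc4a4 (-0.851), Fabp7 (-0.826), Nars (-0.78), Spg7 (-0.566), Csnk1d (-0.448) and Adipor1 (-0.349).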

How the results depend on the processing

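The count past 1.5-fold at an unadjusted p was 46. It was 86 with a pseudocount of 0.1, 88 from the deposited TPM, 27 at a mean of at least 5 FPKM, 21 with ordinary variances and 14 at a fold change of 2. Leaving out 1 library at a time gave 34 to 69. The count at an adjusted p was 3. It was 0 without a filter (44 at an unadjusted p), 0 with ordinary variances (21), 1 from TPM and 9 with all 24 libraries in 1 fit, which included Gh, Prl, Lhb, Tshb and Hif3a. Leaving out 1 library gave 0 to 9, with 0 without LKO 3, 8 without Ctrl 3, 9 without Ctrl 1, 5 without LKO 1 and 5 without LKO 2. As alternatives chosen after seeing the data, leaving out Ctrl 1 and Ctrl 3 together, where the lone Ctrl library is assumed to vary like the LKO group, gave 17, and leaving out the 225 genes of 2 levels gave 0 (34 at an unadjusted p), since these hold Abi3, Samd4 and Pip5k1a. Median-ratio and quantile scaling gave 3 each.

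The replicate numbers did not pair the samples: the deviations of same-numbered libraries correlated at -0.13, 0.14 and 0.09. With the replicate block the counts were 48 at an unadjusted and 0 at an adjusted p. The hypothalamus against GM comparison gave 0 genes under its scaling, pseudocount, filter and replicate block alternatives, and 0 to 17 with 1 library left out.

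Of 97 named genes at an unadjusted p under 0.05, only Atp6v0c changed direction (-0.022 without Ctrl 1 and Ctrl 3 together). Of 54 others, 34 changed sign under at least 1 alternative. The adjusted p ranged from 0.0166 to 1.00 for Abi3, from 0.00590 to 0.372 for Samd4, from 0.0289 to 0.324 for Pip5k1a, from 0.0275 to 0.999 for Zbtb16 and from 0.0867 to 1.00 for Fos. The FPKM hold no read counts, so what depth limits was not tested.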
